A study of Homo sapiens with 20 samples.

Results

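The polychromatic (Poly) stage of HUDEP-2 differentiation, sampled on day 8, was compared with the early and late basophilic (EB/LB) stage, sampled on days 4, 5 and 6. HUDEP-2 is an immortalized erythroid progenitor line derived from human umbilical cord blood. The study followed it by mRNA sequencing from day 0 to day 12, with 2 libraries on each of 10 days, 20 in all. The comparison took the 2 libraries of day 8 and the 6 libraries of days 4, 5 and 6, so 8 of the 20, by the day in their titles. All 8 came from cells of WT genotype in 1 line, so other lines and donors were not sampled. All had been moved to the same differentiation medium, which was IMDM with holo-transferrin, AB serum, heparin, insulin, L-glutamine, antibiotics, EPO, SCF and Doxycycline. SCF was left out from day 6 and Doxycycline from day 8. Whether a day's cells were collected before or after the change of medium on that day is not given in the sources used here. For day 8 the stage and the loss of SCF, and of Doxycycline if cells were collected after that change, therefore cannot be told apart.

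A basophilic erythroblast still divides and is rich in ribosomes. A polychromatic erythroblast accumulates hemoglobin while it makes its last divisions, shrinks its nucleus and starts to clear its organelles. These steps are driven by the transcription factors GATA1 and KLF1 and by signalling from the erythropoietin receptor. The red cell that follows keeps globin, glycolytic enzymes, an antioxidant system and a spectrin-based membrane skeleton.

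One library of each day came from a table that spans all days (set A) and the other from tables of separate days (set B). Library totals were between 52131713 and 70358198 counts, so that 3 counts, the limit that a count of 0 allows, stood for 0.0399 to 0.0613 normalized CPM (counts scaled to library size). Ribosomal RNA genes took 1.03% to 2.34% of the counts in 7 libraries and 17.5% in the day 8 library of set B. The 66 replication-dependent histone genes, whose mRNAs lack a poly(A) tail, summed to 42.4 to 99.9 normalized CPM on days 4 to 6, to 65.8 in the day 8 library of set A and to 750 in that of set B. Small nuclear, nucleolar and other small RNA genes summed to 87.1 to 162 on days 4 to 6 and to 231 and 1500 on day 8. The part of this library's RNA make-up in the changes below was not tested, so levels in both day 8 libraries are given for the main genes and medians in both sets for the functional lists. The 2 libraries of a day differed beyond sampling noise for 68.5% to 78.0% of genes, and none was a copy of another. Nothing in the labels says that they came from separate cultures, so the p-values measure only the spread between these libraries.

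**Figure D1:**
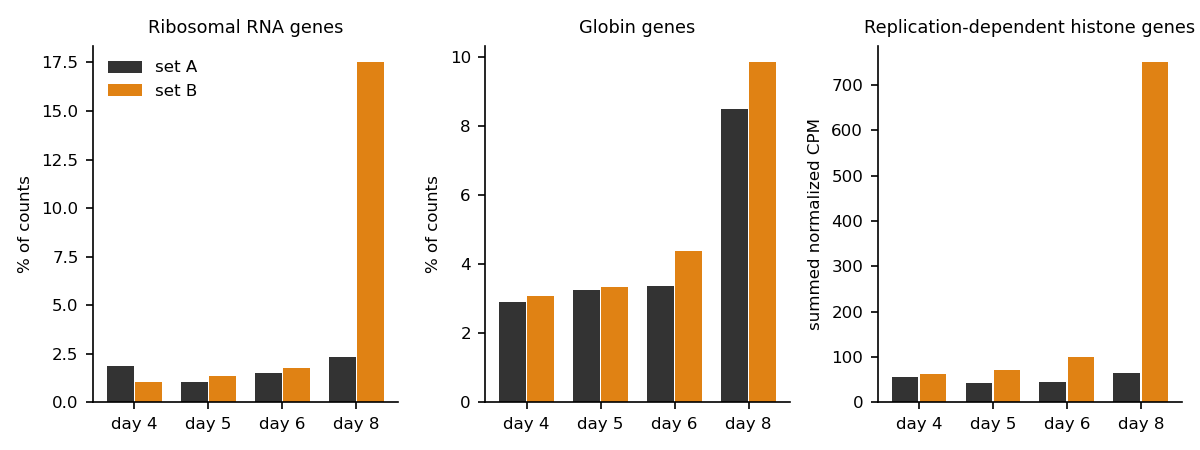
Share of counts on ribosomal RNA genes (left, %), share on the 10 globin genes (middle, %) and summed normalized CPM of the replication-dependent histone genes (right) in each of the 8 libraries, 1 bar a library, dark for set A and orange for set B. Ribosomal RNA reached 17.5% and the histone sum 750 in the day 8 library of set B only, whereas globin stood at 8.49% and 9.85% in both day 8 libraries against 2.92% to 4.39% before.

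Of 15254 genes tested, 1300 were higher on day 8 (8.52%) and 1118 were lower (7.33%), at an adjusted p under 0.05 in edgeR's quasi-likelihood test with Benjamini-Hochberg adjustment. These 2418 genes are 15.9% of those tested. The median log2 fold change over all genes was 0.01. At least 2-fold differences were seen for 643 of the higher and 600 of the lower genes. The calls were made over both sets, and all 2418 changed in the same direction in each, as did 75.6% of all genes tested, with a median absolute log2 change of 0.84 in set A and 1.17 in set B, and 1818 of them changed more in set B. Levels on day 8 lay outside the range of days 4 to 6 in both libraries for 2350 of them, against a background over all genes tested of 19.8% above and 21.1% below that range. Without the day 8 library of set B, 83 genes were higher (0.527%) and 151 lower (0.96%). Of the 2418 genes, 218 were then still called and 2409 kept their sign. Without the day 8 library of set A the counts were 1764 and 1715. Counts at an unadjusted p under 0.05 given below without the day 8 library of set B rest, for day 8, on that of set A alone. The share of all genes at that cut is not given beside them, so by themselves they do not show that a list changed. In bulk RNA, a smaller number of cells of a type and less of an RNA in each cell cannot be told apart. All levels are relative to the rest of the library.

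**Figure D2:**
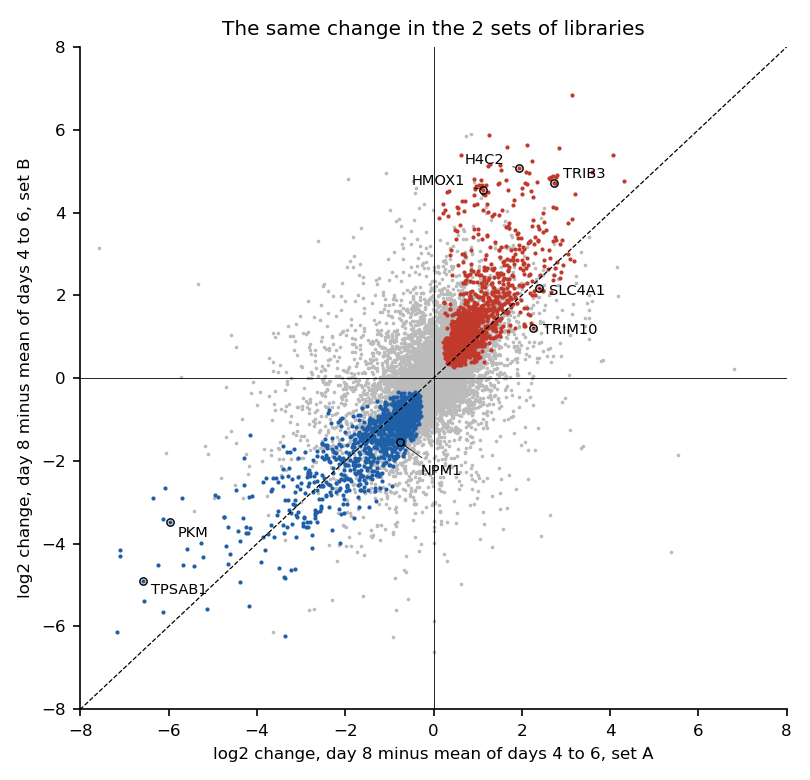
Log2 change of each gene from the mean of days 4 to 6 to day 8 in set A (horizontal) and in set B (vertical), coloured as before, with the line of equal change dashed. Genes called lie at the upper right and lower left, and 1818 of 2418 lie farther from 0 in set B than in set A.

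Globin mRNA rose. HBB, the adult beta-globin, was between 16522 and 23684 normalized CPM on days 4 to 6 (median 19628) and at 55758 and 76976 on day 8, a 3.35-fold rise (log2 fold change 1.74 ± 0.15, adjusted p = 0.00386, SE). Both day 8 libraries stood far above the 6 others, and the change was 1.48 in set A and 1.98 in set B. HBB remained called without the day 8 library of set B (adjusted p = 0.0188). The alpha-globin genes moved alike. HBA2 was between 4142 and 8505 normalized CPM on days 4 to 6 (median 5063) and at 15882 and 23215 on day 8 (log2 fold change 1.84 ± 0.22, adjusted p = 0.00796) and HBA1 had a log2 fold change of 1.89 ± 0.27 (adjusted p = 0.0118). The alpha genes differ by few bases and how shared reads were divided is not given in the sources used here, so the split between them is uncertain. HBD, the minor adult delta-globin, rose from a median of 605 to 1999 and 3072 (log2 fold change 1.99 ± 0.23, adjusted p = 0.00730).

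HBM, the mu-globin of the alpha cluster, was the globin with the largest fold change. Its level was between 48.1 and 89.7 normalized CPM on days 4 to 6 (median 69.7) and at 275 and 457 on day 8 (log2 fold change 2.46 ± 0.19, adjusted p = 0.00374). HBQ1, the theta-globin, rose from a median of 12.3 to 18.2 and 38.6 (adjusted p = 0.0429). The fetal genes HBG1 and HBG2, near-identical copies, had log2 fold changes of 1.45 and 1.39 that did not pass the test (adjusted p = 0.0843 and 0.0663). Embryonic HBZ and HBE1 had log2 fold changes of -0.20 and -0.18 (adjusted p = 0.864 and 0.846). On the length-scaled TPM scale, HBB averaged 66892 on days 4 to 6 and 161558 on day 8, HBM 286 and 1105, and HBG2 538 and 993. Adult HBB was thus far ahead of fetal HBG2 at both stages. Of the 10 globin genes 6 rose (60.0%, against 8.52% of all genes) and the other 4 did not pass the test. Their median log2 fold change as a list was 1.60 (1.30 in set A and 1.75 in set B). With the day 8 library of set B left out 2 were called, and with any other library left out 5 to 8.

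The enzymes and carriers of heme synthesis rose together. Of 15 genes 12 rose and 3 did not pass the test, with a median log2 fold change of 0.84 (0.76 in set A and 0.96 in set B). All 15 were above the range of days 4 to 6 in both day 8 libraries, against 19.8% of all genes tested. ALAS2, the erythroid enzyme of the first and rate-limiting step, was between 618 and 1040.2 normalized CPM on days 4 to 6 (median 765) and at 1625 and 2336 on day 8 (log2 fold change 1.31 ± 0.19, adjusted p = 0.0118). ALAD, the second enzyme, was between 103 and 161 normalized CPM on days 4 to 6 (median 140.2) and at 342 and 307 on day 8 (log2 fold change 1.23 ± 0.14, adjusted p = 0.00709). ALAD was the member that stayed called without the day 8 library of set B (adjusted p = 0.0392), and with any other library left out 7 to 12 members were called, with 7 when the day 4 library of set A was left out. Later enzymes of the pathway had log2 fold changes of 1.31 (UROS), 0.62 (UROD), 0.97 (CPOX), 0.81 (PPOX) and 0.84 (FECH, which inserts the iron), with adjusted p of 0.0104, 0.0221, 0.0240, 0.0104 and 0.0150.

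Among the carriers, SLC6A9, the glycine importer of the plasma membrane, was between 54.8 and 149.6 normalized CPM on days 4 to 6 (median 79.8) and at 222 and 396 on day 8 (log2 fold change 1.78 ± 0.31, adjusted p = 0.0171). TSPO2, a cholesterol-binding protein of erythroid cells, rose most in this group, from a median of 7.10 to 26.7 and 49.5 (log2 fold change 2.30 ± 0.34, adjusted p = 0.0121). The mitochondrial transporters ABCB10 and ABCB6 rose by 0.65 and 0.77 on the log2 scale (adjusted p = 0.0176 and 0.0205). SLC25A38, TMEM14C and CLPX, with log2 fold changes of 0.29, 0.38 and 0.20, did not pass the test.

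GATA1 binds the letters GATAA, and KLF1 binds sites that hold CACCC. In windows of 250 bases before the transcription start that RefSeq gives on GRCh38.p14, GATAA was found on either strand in 13.0% of the 10709 tested genes that have a window, in 15.1% of those higher on day 8 and in 11.4% of those lower. It was found in 4 of the 13 heme synthesis genes with a window, namely ALAS2, CPOX, ABCB10 and TSPO2, and in 4 of 13 membrane skeleton genes. CACCC was found in 57.8% of all windows and in 7 of 13 (53.8%) of each of these lists, no more often than over all genes. The windows of ALAS2 and TSPO2 are shown because they held both motifs and belong to genes that rose together. GATAA and CACCC, or their reverse complements TTATC and GGGTG, are in capitals, the sequences run 5′ to 3′ on the gene's own strand, and a match is a description of letters, not of binding.
ALAS2, chrX:55030978-55031227, minus strand: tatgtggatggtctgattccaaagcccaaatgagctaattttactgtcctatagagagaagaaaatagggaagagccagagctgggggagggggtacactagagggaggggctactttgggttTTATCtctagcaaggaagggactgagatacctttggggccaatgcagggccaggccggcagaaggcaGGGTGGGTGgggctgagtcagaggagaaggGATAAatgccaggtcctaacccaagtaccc
TSPO2, chr6:41042217-41042466, plus strand: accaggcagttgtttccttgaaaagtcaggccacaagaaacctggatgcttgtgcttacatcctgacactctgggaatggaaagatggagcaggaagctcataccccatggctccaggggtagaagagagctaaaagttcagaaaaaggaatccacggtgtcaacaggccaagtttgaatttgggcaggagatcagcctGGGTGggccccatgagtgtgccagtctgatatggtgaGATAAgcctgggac
For TSPO2 the deposited annotation also holds transcripts that begin farther upstream than this window.

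Iron genes moved less evenly. Of 19 members 6 rose (31.6%) and 1 fell (5.26%), against 8.52% and 7.33% of all genes. The median log2 fold change was 0.48 (0.18 in set A and 0.60 in set B). On log2(TPM + 1), where all genes had a median of -0.29, it was -0.03, or 0.26 above that of all genes. SLC25A37, mitoferrin 1, which carries iron into the mitochondrion, was between 1129 and 2898 normalized CPM on days 4 to 6 (median 1710.5) and at 4048 and 6039.7 on day 8 (log2 fold change 1.45 ± 0.28, adjusted p = 0.0226). NCOA4, the receptor that brings ferritin to the lysosome, was between 277 and 433 normalized CPM on days 4 to 6 (median 359) and at 658 and 1037 on day 8 (log2 fold change 1.25 ± 0.20, adjusted p = 0.0147). TFRC, the transferrin receptor, rose from a median of 6378 to 9355 and 8956, a 1.45-fold change (adjusted p = 0.0236). The heme oxygenases moved apart. HMOX1, the inducible form that breaks down heme, was between 4.34 and 10.5 normalized CPM on days 4 to 6 (median 7.14) and at 18.7 and 135 on day 8 (log2 fold change 3.42 ± 0.58, adjusted p = 0.0162), and its change was 1.11 in set A and 4.55 in set B. HMOX2, the constitutive form, fell from a median of 17.8 to 8.32 and 7.51 (log2 fold change -1.19 ± 0.16, adjusted p = 0.00972). Without the day 8 library of set B, 0 of the 19 passed edgeR's adjusted threshold and 6 were higher at an unadjusted p under 0.05, and with any other library left out 1 to 10 were called higher.

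The membrane skeleton and the proteins embedded above it rose in most members. Of 18 membrane skeleton genes 13 rose (72.2%, against 8.52% of all genes) and the others did not pass the test. The median log2 fold change was 0.82 (0.62 in set A and 0.86 in set B). SLC4A1, band 3, the anion exchanger that anchors the skeleton, was between 606 and 2546 normalized CPM on days 4 to 6 (median 1260.2) and at 5134 and 7737 on day 8 (log2 fold change 2.25 ± 0.32, adjusted p = 0.0112). The log2 difference of day 8 was 2.93 from day 4 and 1.71 from day 6. SPTB, a spectrin chain, changed by 1.46-fold (adjusted p = 0.0399).

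Linker and capping proteins followed. ANK1, ankyrin, rose by 0.63, EPB42, protein 4.2, by 1.06, EPB41, protein 4.1, by 0.51, and TMOD1, the tropomodulin that caps the short actin filaments, by 1.16 on the log2 scale. DMTN, dematin, which bundles that actin, was between 198 and 475 normalized CPM on days 4 to 6 (median 282) and at 609 and 988 on day 8 (log2 fold change 1.39 ± 0.31, adjusted p = 0.0319). STOM, stomatin, rose by 1.12, ADD3, an adducin, by 1.00, MPP1 by 0.73, KANK2 by 0.92 and TMCC2 by 1.68. The members that did not pass were ADD1 (0.11), ADD2 (-0.03), TPM1 (0.32), TPM3 (-0.31) and ACTB (-0.47, adjusted p = 0.0634). Without the day 8 library of set B 2 members were called and 12 had an unadjusted p under 0.05, and with any other library left out 6 to 12 were called.

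Of 24 blood group and transporter genes 16 rose (66.7%, against 8.52% of all genes) and the others did not pass the test. The median log2 fold change was 1.04 (0.99 in set A and 0.96 in set B). In 23 of the 24, both day 8 libraries were above the 6 others, against the background of 19.8% of all genes tested. RHD, which carries the Rh D antigen, was between 6.78 and 21.4 normalized CPM on days 4 to 6 (median 12.2) and at 60.2 and 95.8 on day 8 (log2 fold change 2.70 ± 0.20, adjusted p = 0.00374). Its near-identical neighbour RHCE changed by 2.46 ± 0.19, and the split of reads between them is uncertain. RHAG, their membrane partner, rose by 1.06 on the log2 scale (adjusted p = 0.0222). Other antigen carriers that rose were KEL (0.73), XK (0.94), ERMAP (0.91), GYPC (1.03), ACKR1, the Duffy antigen (1.45), and GYPE (1.13), whose reads are hard to separate from those of GYPB.

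Several transporters rose as well. SLC14A1, the urea transporter of the Kidd blood group, was between 6.75 and 14.2 normalized CPM on days 4 to 6 (median 9.97) and at 30.9 and 68.6 on day 8 (log2 fold change 2.29 ± 0.28, adjusted p = 0.00843). SLC2A1, the glucose transporter GLUT1, was between 211 and 388 normalized CPM on days 4 to 6 (median 263) and at 653 and 1236 on day 8 (log2 fold change 1.75 ± 0.25, adjusted p = 0.0117). AQP1, the water channel, was between 75.5 and 195 normalized CPM on days 4 to 6 (median 130.0) and at 422 and 446 on day 8, and it is a case of a larger change in set A, with 2.21 in set A and 1.33 in set B. CA1 and CA2, the carbonic anhydrases, rose by 1.17 and 1.06, and CA1 reached 15518 and 17729 normalized CPM. ABCG2 and SLC29A1 rose by 0.89 and 0.50. CD44, which is lost during maturation, had a log2 fold change of -0.29 (adjusted p = 0.336), and CD47 and CD59 had 0.32 and 0.37 without passing the test. Without the day 8 library of set B 4 members were called and 16 had an unadjusted p under 0.05, and with any other library left out 9 to 15 were called.

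Among 20 erythroid transcription factors 9 rose, with a median log2 fold change of 0.55 (0.52 in both sets). On log2(TPM + 1) it was 0.07, or 0.37 above the median of all genes. GATA1 itself had a log2 fold change of 0.34 and did not pass the test (adjusted p = 0.0733). KLF1 was between 454 and 557 normalized CPM on days 4 to 6 (median 497) and at 667 and 975 on day 8 (log2 fold change 0.71 ± 0.16, adjusted p = 0.0301). SOX6, a repressor of embryonic globin, rose most, from a median of 25.4 to 76.6 and 87.6 (log2 fold change 1.74 ± 0.22, adjusted p = 0.00892). FOXO3, a forkhead factor that induces antioxidant and autophagy genes, was between 139 and 250.01 normalized CPM on days 4 to 6 (median 192) and at 349.7 and 634 on day 8 (log2 fold change 1.33 ± 0.24, adjusted p = 0.0184). KLF13 rose by 1.11 ± 0.10 (adjusted p = 0.00416) and MXI1, an antagonist of MYC, by 1.26 ± 0.27 (adjusted p = 0.0289). With set B's day 8 library left out, only KLF13 was called (adjusted p = 0.0294), while 11 members had an unadjusted p under 0.05, and with any other library left out 4 to 11 were called.

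Several factors of earlier progenitors fell. Of 18 on the list 13 were expressed highly enough to test and 6 of them fell (46.2%, against 7.33% of all genes). The median log2 fold change of the 13 was -0.81 (-0.66 in set A and -1.03 in set B). GATA2, which GATA1 replaces at many sites, was between 97.5 and 132 normalized CPM on days 4 to 6 (median 117) and at 41.9 and 57.1 on day 8 (log2 fold change -1.22 ± 0.19, adjusted p = 0.0145). HHEX was between 16.8 and 32.6 normalized CPM on days 4 to 6 (median 25.4) and at 1.57 and 4.19 on day 8 (log2 fold change -3.08 ± 0.44, adjusted p = 0.0115), and both day 8 libraries were far below the rest. SPI1, the myeloid factor PU.1, was at 0.225 and 0.421 on day 8 against a median of 2.14 (adjusted p = 0.0125), and IKZF2 fell by 2.46 on the log2 scale from a median of 0.797. MYC had a log2 fold change of -0.81 (adjusted p = 0.0818) and MYB of -1.22 (adjusted p = 0.0549), neither past the threshold. When the day 8 library of set B was omitted, 2 members were called lower, and with any other left out 4 to 8.

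Receptor signalling genes moved both ways. Of 28 EPO and KIT signalling genes tested 7 rose and 4 fell, with a median of 0.09 (-0.03 in set A and 0.24 in set B). EPOR, the erythropoietin receptor, was between 162 and 204 normalized CPM on days 4 to 6 (median 177) and at 286 and 379 on day 8 (log2 fold change 0.89 ± 0.13, adjusted p = 0.0125), and its kinase JAK2 rose by 0.81 ± 0.12 (adjusted p = 0.0119). BCL2L1, which encodes the survival protein BCL-XL, was between 81.5 and 142 normalized CPM on days 4 to 6 (median 98.6) and at 208 and 426 on day 8 (log2 fold change 1.62 ± 0.27, adjusted p = 0.0157). ERFE, the hormone erythroferrone, rose from a median of 109 to 251 and 422 (adjusted p = 0.0157). SOCS3, a feedback inhibitor of JAK signalling, rose from a median of 1.04 to 2.64 and 13.8 (adjusted p = 0.0386). CISH, another such inhibitor, rose by 1.11 (adjusted p = 0.0182), whereas SOCS1, SOCS2, PIM1, PIM3 and OSM, with log2 fold changes of 1.85, -0.19, 0.45, 0.06 and -0.30, did not pass the test.

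KIT, the receptor of the SCF that was withdrawn, was between 173 and 287 normalized CPM on days 4 to 6 (median 241) and at 117 and 29.9 on day 8. Both day 8 libraries were below the 6 others but far apart from each other, and the log2 fold change of -1.67 ± 0.52 did not pass the test (adjusted p = 0.0680). LYN, a SRC-family kinase that acts in both pathways, was between 91.6 and 127 normalized CPM on days 4 to 6 (median 102) and at 26.6 and 25.03 on day 8 (log2 fold change -2.05 ± 0.11, adjusted p = 0.00238), and changed by -2.01 in set A and -2.08 in set B. RHEX, a regulator of EPO signalling in human erythroid cells, had 17 to 89 counts in the libraries of days 4 to 6 and 0 in both of day 8, which puts it at least 10.1-fold lower against the floor of 3 counts averaged over the day 8 libraries. STAT5A fell by 1.46 on the log2 scale (adjusted p = 0.0305). In the absence of the day 8 library of set B, 1 member was called higher and LYN was the member called lower (adjusted p = 0.0188). With any other library left out 5 to 10 were called higher and 1 to 4 lower.

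The median of 19 survival and death genes tested was 0.30 (0.17 in set A and 0.60 in set B). Of the 19, 5 rose (26.3%, against 8.52% of all genes) and the others did not pass. Beside BCL2L1 these were its relatives MCL1 (0.55) and BCL2L2 (0.51), which restrain cell death, and BCL2L11 (0.67) and BAD (0.79), which promote it. With the day 8 library of set B left out the median of the list was -0.09, so a rise of the list was not seen without that library.

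Several inhibitors of the cell cycle rose, while few genes of replication and mitosis passed the test. Of 21 CDK inhibitors and G1 cyclins 9 rose (42.9%) and 1 fell (4.76%), against 8.52% and 7.33% of all genes. The median was 0.74 (0.69 in set A and 0.80 in set B). CDKN1B, the inhibitor p27 of terminal erythroid divisions, was between 49.6 and 89.8 normalized CPM on days 4 to 6 (median 72.3) and at 117 and 174 on day 8 (log2 fold change 1.02 ± 0.25, adjusted p = 0.0401). CDKN2D, p19, rose from a median of 4.65 to 13.5 and 23.3 (adjusted p = 0.0241). CDKN2B, p15, rose from 10.2 to 30.1 and 121 (adjusted p = 0.0174) and CDKN1C, p57, from 0.457 to 0.981 and 6.24 (adjusted p = 0.0411). These inhibitors stood above days 4 to 6 in both libraries and higher in set B. BTG2, an antiproliferative gene, was between 53.9 and 122 normalized CPM on days 4 to 6 (median 81.2) and at 235 and 346 on day 8 (log2 fold change 1.80 ± 0.24, adjusted p = 0.0103), nearly the same change in both sets. CCND3, the cyclin that sets the number of terminal erythroid divisions, rose by 1.26 (adjusted p = 0.0406), and the cyclin CCNE2 by 1.32 (adjusted p = 0.0079). CCND1 was the member that fell, by 1.64 on the log2 scale (adjusted p = 0.0172). The inhibitors CDKN1A, CDKN2A and CDKN2C, with log2 fold changes of 2.46, -0.10 and 0.74, did not pass the test. Leaving out the day 8 library of set B, 0 members were called higher by edgeR and 6 had an unadjusted p under 0.05, while 2 to 8 were called higher with any other left out.

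Of 54 DNA replication genes 2 rose and 1 fell (median 0.03), and of 50 mitosis genes 2 rose (median 0.19). The sets went opposite ways, with medians of 0.13 in set A and -0.11 in set B for replication and of 0.42 and -0.02 for mitosis. Relative to all genes on log2(TPM + 1) the medians were -0.13 and 0.04. TK1, the thymidine kinase of S phase, rose by 0.78 (adjusted p = 0.00921) and POLD2, a subunit of DNA polymerase delta, fell by 0.44 (adjusted p = 0.0351). SMC2, a condensin subunit, and SPC24, of the kinetochore, rose by 0.63 and 0.50. CDK1 had a log2 fold change of 0.59 (adjusted p = 0.110), PCNA of 0.15 and MCM2 of 0.15 (adjusted p = 0.513). The shares called, 3.70% and 1.85% of replication genes and 4% of mitosis genes, were under the backgrounds of 8.52% and 7.33%. With the set of tables as a block this turned for mitosis, where 16 of 50 were called higher (32%) against 20.2% of all genes, while 6 replication genes were called higher and 5 lower. Leaving out set B's day 8 library, no call of either list held, and the medians were 0.13 for replication and 0.19 for mitosis genes.

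Genes of ribosome assembly fell in most members. Of 50 ribosome biogenesis genes 29 fell (58.0%, against 7.33% of all genes) and 49 had a negative log2 fold change. In 43 of the 50 both day 8 libraries were below all 6 of days 4 to 6, against the background of 21.1%. Their median was -0.87 (-0.69 in set A and -1.09 in set B). NPM1, nucleophosmin of the nucleolus, was between 1489.5 and 2095 normalized CPM on days 4 to 6 (median 1698) and at 914 and 643 on day 8 (log2 fold change -1.14 ± 0.19, adjusted p = 0.0162). NOP16, a nucleolar protein of large subunit assembly, fell from a median of 50.8 to 26.7 and 15.6 (log2 fold change -1.31 ± 0.24, adjusted p = 0.0193), and RRP9 and LYAR fell by 1.29 and 1.24. These calls depended on single libraries. With set B's day 8 library left out, edgeR called 0 of the 50, with 28 lower at an unadjusted p under 0.05. The number was 39 without the day 8 library of set A and 1 to 10 without any library of days 4 to 6, being 1 without that of set A on day 4 or on day 5.

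Few genes of the finished ribosome passed the test. Of 79 cytosolic ribosomal protein genes 1 rose (1.27%) and 2 fell (2.53%), against 8.52% and 7.33% of all genes. Their median was 0.12 (0.11 in set A and 0.16 in set B). On log2(TPM + 1) it was -0.05 relative to all genes. RPL39 rose by 0.49 (adjusted p = 0.0394) and RPS26 and RPL23 fell by 0.69 and 0.63 (adjusted p = 0.0169 and 0.0292). Of 51 nuclear-encoded respiratory chain genes COX5A and NDUFAB1 fell, by 0.58 and 0.44, which is 3.92% against 7.33% of all genes. The median was -0.20 (-0.24 in set A and -0.20 in set B). In 46 of the 51 the log2 fold change was negative, and with the set of tables as a block 23 were called lower (45.1%) against 22.2% of all genes. Of 44 proteasome genes 2 rose (4.55%) and 4 fell (9.09%), shares near those of all genes, with a median of -0.15 (-0.06 in set A and -0.17 in set B). PSME3, a regulator of the nuclear proteasome, fell by 0.81 (adjusted p = 0.0254), followed by PSMA3 (-0.61), PSMB2 (-0.56) and the assembly factor PSMG1 (-0.55). In these 3 lists, leaving out the day 8 library of set B left 0 adjusted calls in edgeR.

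Genes of organelle clearance rose in part. Of 41 mitophagy and autophagy genes 16 rose (39.0%) and 1 fell (2.44%), against 8.52% and 7.33% of all genes. The median was 0.49 (0.31 in set A and 0.57 in set B). GABARAPL1, an ATG8 protein that coats the autophagosome, was between 3.95 and 7.79 normalized CPM on days 4 to 6 (median 4.86) and at 15.7 and 47.3 on day 8 (log2 fold change 2.62 ± 0.37, adjusted p = 0.0113). ULK1, the kinase that starts autophagy and takes part in mitochondrial clearance in red cells, was between 21.0 and 37.5 normalized CPM on days 4 to 6 (median 27.3) and at 59.6 and 139.7 on day 8 (log2 fold change 1.87 ± 0.27, adjusted p = 0.0118), and its change was 1.18 in set A and 2.30 in set B. OPTN, a mitophagy receptor, rose from a median of 92.3 to 202 and 309 (adjusted p = 0.0298). PINK1, the kinase that marks damaged mitochondria, rose from 19.0 to 34.8 and 61.0 (adjusted p = 0.0122). BNIP3L, the receptor NIX of reticulocyte mitophagy, had a log2 fold change of 0.26 ± 0.28 and did not pass the test (adjusted p = 0.541). The core conjugation genes ATG5, ATG7 and ATG12 had log2 fold changes of -0.02, -0.04 and -0.00. When the day 8 library of set B was omitted, ULK1 was the member called (adjusted p = 0.0425) and 14 had an unadjusted p under 0.05, and with any other library left out 5 to 19 were called.

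Of 27 ubiquitin genes of late erythroid cells 15 rose (55.6%, against 8.52% of all genes) and the others did not pass the test. The median was 0.64 (0.49 in set A and 0.68 in set B). TRIM10, the tripartite motif protein the study is about, was between 32.5 and 108 normalized CPM on days 4 to 6 (median 66.9) and at 250.4 and 171 on day 8 (log2 fold change 1.74 ± 0.22, adjusted p = 0.00921), a 3.34-fold rise. Unlike most genes it changed more in set A, with 2.25 in set A and 1.22 in set B, and it stayed called without the day 8 library of set B (adjusted p = 0.0363). The log2 difference of day 8 was 2.41 from day 4, 1.58 from day 5 and 1.23 from day 6 (adjusted p = 0.103). TRIM58, another tripartite motif ligase of erythroblasts, was between 139 and 167 normalized CPM on days 4 to 6 (median 159) and at 199 and 312 on day 8 (log2 fold change 0.71 ± 0.17, adjusted p = 0.0359). UBE2H, a conjugating enzyme that is abundant in maturing red cells, rose by 1.62 ± 0.33 (adjusted p = 0.0250), FBXO30 by 1.52 ± 0.26 (adjusted p = 0.0162) and UBE2B by 1.38 ± 0.25 (adjusted p = 0.0184). UBE2O, which targets ribosomal proteins in reticulocytes, had a log2 fold change of 0.24 (adjusted p = 0.287). In the absence of the day 8 library of set B, TRIM10 and FBXO30 were called and 15 members had an unadjusted p under 0.05, and with any other library left out 5 to 15 were called.

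TRIM10 spans chr6:30151939-30163216 (hg38) in the deposited annotation. The window before the start that RefSeq gives for it is shown because TRIM10 rose with the erythroid genes above, and it held 1 match to each motif, in capitals as before.
TRIM10, chr6:30161212-30161461, minus strand, GRCh38.p14: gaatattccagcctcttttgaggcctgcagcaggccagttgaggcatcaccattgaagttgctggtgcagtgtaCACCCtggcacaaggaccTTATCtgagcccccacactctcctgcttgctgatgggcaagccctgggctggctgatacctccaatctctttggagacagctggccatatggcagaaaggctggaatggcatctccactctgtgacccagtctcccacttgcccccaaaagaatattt
Other transcripts of TRIM10 in the deposited annotation begin farther upstream.

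Energy genes moved in both directions. Of 32 red cell energy genes tested 6 rose (18.8%) and 9 fell (28.1%), against 8.52% and 7.33% of all genes. The median was -0.17 (-0.33 in set A and -0.04 in set B). PKM, the pyruvate kinase of non-erythroid and immature cells, was between 27.5 and 69.8 normalized CPM on days 4 to 6 (median 37.4) and at 0.613 and 3.58 on day 8 (log2 fold change -4.28 ± 0.67, adjusted p = 0.0142). PKLR, the red cell isozyme, had a log2 fold change of -0.61 that did not pass the test (adjusted p = 0.246). ENO1, enolase, was between 307 and 613 normalized CPM on days 4 to 6 (median 422) and at 92.8 and 86.5 on day 8 (log2 fold change -2.21 ± 0.23, adjusted p = 0.00618), and GPI, the isomerase of the second step of glycolysis, was between 77.8 and 186 normalized CPM on days 4 to 6 (median 118) and at 39.6 and 16.7 on day 8 (log2 fold change -2.12 ± 0.48, adjusted p = 0.0315). LDHA fell by 1.78 (adjusted p = 0.0168) and GAPDH by 0.71 (adjusted p = 0.0156). HK1, the hexokinase of red cells, had a log2 fold change of 0.03 (adjusted p = 0.871).

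Some of the red cell energy genes rose. BPGM, which makes the 2,3-bisphosphoglycerate that lowers the oxygen affinity of hemoglobin, was between 29.3 and 71.7 normalized CPM on days 4 to 6 (median 43.0) and at 119 and 186 on day 8 (log2 fold change 1.74 ± 0.28, adjusted p = 0.0154). GCLM and GCLC, the subunits of the enzyme that starts glutathione synthesis, rose by 1.60 and 0.90 (adjusted p = 0.00547 and 0.0151). PDK4, which keeps pyruvate out of the citric acid cycle, rose from a median of 0.714 to 2.86 and 6.59 (adjusted p = 0.0160). Leaving out the day 8 library of set B, 2 members were called higher and 3 lower, and with any other library left out 4 to 6 and 5 to 9.

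Of 31 antioxidant and chaperone genes tested 4 rose (12.9%) and 4 fell (12.9%), against 8.52% and 7.33% of all genes. Their median was -0.10, with -0.09 in set A and -0.05 in set B. SELENBP1, a selenium-binding protein abundant in red cells, was between 45.6 and 94.8 normalized CPM on days 4 to 6 (median 58.1) and at 133 and 275 on day 8 (log2 fold change 1.67 ± 0.30, adjusted p = 0.0190), and PRDX2, the main peroxiredoxin of red cells, rose by 0.73 (adjusted p = 0.0210). NQO1 and the mitochondrial chaperonin HSPE1 fell by 1.15 and 0.76 (adjusted p = 0.0489 and 0.0142). AHSP, which stabilizes free alpha-globin, had a log2 fold change of 0.70 (adjusted p = 0.0794). With set B's day 8 library left out, no call of this list held and its median was 0.03.

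The cholesterol synthesis genes that passed the test were mostly lower. Of 23 genes 7 fell (30.4%) and 1 rose (4.35%), against 7.33% and 8.52% of all genes. The median was -0.46 (-0.52 in set A and -0.33 in set B). HMGCS1, an early enzyme of the pathway, was between 299 and 889 normalized CPM on days 4 to 6 (median 616) and at 138 and 148 on day 8 (log2 fold change -2.07 ± 0.34, adjusted p = 0.0158), and its log2 difference was -2.48 from day 4 and -1.51 from day 6. The later enzymes DHCR7 and HSD17B7 fell by 1.21 and 1.43 (adjusted p = 0.0399 and 0.0158). SREBF2, the factor that drives this pathway, was the member that rose, by 0.48 (adjusted p = 0.0397). With set B's day 8 library left out, edgeR called 0 of them lower, with 10 lower at an unadjusted p under 0.05, and with any other library left out 4 or 5 were called lower.

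Genes of the eIF2alpha and ATF4 pathway had one of the highest medians of the lists. The pathway slows translation when a kinase such as HRI (EIF2AK1), which senses heme, phosphorylates eIF2alpha, and the factor ATF4 then induces amino acid and stress genes. Of 24 genes 15 rose (62.5%, against 8.52% of all genes) and the others did not pass the test. The median was 0.96 (0.71 in set A and 1.09 in set B). EIF2AK1 was between 395 and 606 normalized CPM on days 4 to 6 (median 466) and at 747 and 1013 on day 8 (log2 fold change 0.88 ± 0.18, adjusted p = 0.0264), whereas the kinases EIF2AK2, EIF2AK3 and EIF2AK4 had log2 fold changes of -0.36, 0.25 and -0.47 that did not pass. ATF4 mRNA had a log2 fold change of 0.56 (adjusted p = 0.0871). TRIB3, a pseudokinase that ATF4 induces, was between 4.21 and 19.4 normalized CPM on days 4 to 6 (median 9.23) and at 46.8 and 281 on day 8 (log2 fold change 4.21 ± 0.54, adjusted p = 0.00921), the largest increase among called mRNA genes with at least 100 normalized CPM on day 8. Its change was 2.73 in set A and 4.72 in set B, and it passed without the day 8 library of set B (adjusted p = 0.0392). DDIT3, the factor CHOP, rose from a median of 4.90 to 9.67 and 48.0 (adjusted p = 0.0394), and the 9.67 of set A lay within the range of days 4 to 6, which reached 10.2. ATF3 rose from 5.10 to 11.9 and 69.2 (adjusted p = 0.0274).

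Several amino acid genes rose. ASNS, asparagine synthetase, was between 189 and 363 normalized CPM on days 4 to 6 (median 276) and at 505 and 667 on day 8 (log2 fold change 1.14 ± 0.13, adjusted p = 0.00728), with a change of 0.98 in set A and 1.27 in set B. CHAC1, which degrades glutathione, was between 13.2 and 40.8 normalized CPM on days 4 to 6 (median 22.5) and at 49.1 and 113 on day 8 (log2 fold change 1.84 ± 0.31, adjusted p = 0.0164). PHGDH and PSAT1, of serine synthesis, rose by 3.05 and 0.71, and the transporter chains SLC7A11, SLC7A5 and SLC3A2 by 1.80, 1.04 and 1.07. SESN2 and DDIT4, inhibitors of mTORC1, rose by 2.36 and 1.49, PPP1R15B, a subunit of the eIF2alpha phosphatase, by 0.69 and MTHFD2 by 0.60. NUPR1 had a log2 fold change of 3.27 that did not pass the test (adjusted p = 0.0658), and PSPH, the last step of serine synthesis, had -0.79 (adjusted p = 0.0595). When the day 8 library of set B was omitted, TRIB3 and ASNS were called and 13 members had an unadjusted p under 0.05, and with any other library left out 8 to 16 were called.

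ATF4 with a C/EBP partner binds letters of the form TGATGNAA. These were found on either strand in 1.39% of the 10709 windows and in 4 of the 19 windows of this list, those of ASNS, CHAC1, ATF3 and PPP1R15B. The motif was chosen after the values were known. The windows of ASNS and CHAC1 are shown because they hold this motif and belong to members that rose. Capitals mark TGATGNAA or its reverse complement, and also CACCC.
ASNS, chr7:97872409-97872658, minus strand, GRCh38.p14: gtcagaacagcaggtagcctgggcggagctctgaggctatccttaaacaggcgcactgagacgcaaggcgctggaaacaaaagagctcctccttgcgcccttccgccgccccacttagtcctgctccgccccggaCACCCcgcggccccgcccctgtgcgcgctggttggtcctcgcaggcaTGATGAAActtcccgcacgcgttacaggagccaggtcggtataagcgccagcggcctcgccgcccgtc
CHAC1, chr15:40953221-40953470, plus strand, GRCh38.p14: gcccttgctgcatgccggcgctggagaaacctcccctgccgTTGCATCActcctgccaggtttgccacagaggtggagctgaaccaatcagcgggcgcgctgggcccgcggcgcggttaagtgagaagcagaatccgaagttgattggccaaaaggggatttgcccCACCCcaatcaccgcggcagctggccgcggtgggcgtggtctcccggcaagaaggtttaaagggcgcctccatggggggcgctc
Other transcripts of both genes in the deposited annotation begin farther upstream.

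Of 34 genes of nuclear condensation and enucleation 8 rose (23.5%) and 3 fell (8.82%), with a median of 0.09 (0.10 in set A and 0.08 in set B). Of all genes tested 8.52% rose and 7.33% fell, so the share that fell was near the background. MFHAS1 rose from a median of 345 to 632 and 942 (adjusted p = 0.00869) and MYL4, a myosin light chain, from 21.0 to 44.9 and 30.9 (adjusted p = 0.0489). XPO7, a nuclear exporter of maturing erythroblasts, had a log2 fold change of 0.50 (adjusted p = 0.0837). DIAPH1, LMNA and CFL1, of the actin cytoskeleton and the lamina, fell by 0.71, 0.49 and 0.67. In the absence of the day 8 library of set B, 1 member was called, and with any other left out 1 to 9 were called higher and 1 to 5 lower.

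The largest increases outside these lists were of mixed function. ARG1, the arginase of the urea cycle that human red cells also hold, was between 0.583 and 1.75 normalized CPM on days 4 to 6 (median 0.782) and at 8.22 and 22.7 on day 8 (log2 fold change 4.04 ± 0.34, adjusted p = 0.00386), and the mitochondrial arginase ARG2 was between 0.971 and 3.05 normalized CPM on days 4 to 6 (median 1.79) and at 9.91 and 55.9 on day 8 (log2 fold change 4.21 ± 0.53, adjusted p = 0.00869). Both remained called without the day 8 library of set B (adjusted p = 0.0188 and 0.0358). RAP1GAP, which switches off the small GTPase RAP1, was between 57.8 and 111 normalized CPM on days 4 to 6 (median 75.7) and at 218 and 553 on day 8 (log2 fold change 2.36 ± 0.29, adjusted p = 0.00869). TXNIP, which binds thioredoxin and limits glucose uptake, was between 108 and 243 normalized CPM on days 4 to 6 (median 172) and at 458 and 1020.3 on day 8 (log2 fold change 2.11 ± 0.27, adjusted p = 0.00923). BCL6, a transcriptional repressor, rose from a median of 1.35 to 5.01 and 42.8 (adjusted p = 0.0262). SLCO5A1, RUNDC3A and C5 rose by 3.47, 3.37 and 3.30 on the log2 scale. With 1 library left out, these changes ranged from 1.80 to 4.21, from 1.65 to 4.12 and from 1.36 to 4.09.

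H4C2 and H3C2, replication-dependent histone genes, were also among the 10 largest increases. H4C2 was between 0.152 and 0.927 normalized CPM on days 4 to 6 (median 0.282) and at 1.06 and 16.4 on day 8 (log2 fold change 4.54 ± 0.86, adjusted p = 0.0205) and changed by 1.94 in set A and 5.07 in set B, and H3C2 changed by 1.81 in set A and 4.19 in set B. Of the 61 such histone genes tested 29 were called higher, with a median log2 change of 0.71 in set A and 3.56 in set B. These calls moved with the library that is rich in ribosomal RNA, whose part in them was not tested.

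The largest decreases exceeded the largest increases in size and were large in both sets. PALM2AKAP2, which encodes proteins of the membrane and of kinase anchoring, was between 48.9 and 80.7 normalized CPM on days 4 to 6 (median 58.1) and at 0.409 and 0.804 on day 8 (log2 fold change -6.65 ± 0.30, adjusted p = 0.00175). GCSAML, a signalling adaptor-like gene, was between 9.76 and 21.2 normalized CPM on days 4 to 6 (median 11.99) and at 0.123 and 0.249 on day 8 (log2 fold change -6.12 ± 0.36, adjusted p = 0.00327). FMNL1, a formin of blood cells, was between 5.61 and 13.0 normalized CPM on days 4 to 6 (median 7.72) and at 0.348 and 0.345 on day 8 (log2 fold change -4.56 ± 0.29, adjusted p = 0.00374). F2R, the thrombin receptor, and STAP1, a signalling adaptor, fell by 4.27 and 4.15 on the log2 scale (adjusted p = 0.00374 and 0.00558). MSN, moesin, which links actin to the membrane, was between 272 and 388 normalized CPM on days 4 to 6 (median 314) and at 73.2 and 45.9 on day 8 (log2 fold change -2.44 ± 0.21, adjusted p = 0.00391). All 6 remained called without the day 8 library of set B, with adjusted p of 0.00407 for PALM2AKAP2, 0.0294 for STAP1, 0.0194 for FMNL1 and 0.0188 for each of GCSAML, F2R and MSN.

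Markers of other lineages were examined as whole lists. Of 18 leukocyte markers 10 were at 0 in all 8 libraries, among them MPO, ELANE and ITGAM, and their summed level was 3.82 to 6.53 normalized CPM on days 4 to 6 and 2.82 and 5.38 on day 8. Of 12 megakaryocyte markers 6 were at 0 in all libraries, PF4, PPBP and VWF included, and the sum was 10.6 to 45.8 and then 13.8 and 25.7. Of those tested, ITGA2B, an integrin chain of megakaryocytes and early progenitors, fell from a median of 9.23 to 0.307 and 0.728 (adjusted p = 0.0492), and THBS1, at 0 on day 8, was at least 3.22-fold lower. The mast cell, basophil and eosinophil list summed to 183 to 362 normalized CPM on days 4 to 6 and to 56.2 and 74.4 on day 8, while its members CPA3, CMA1, EPX and CLC were at 0 in all libraries.

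On days 4 to 6 that sum was made up mainly of GATA2 and of the tryptases, and on day 8 mainly of GATA2. TPSAB1 was between 34.7 and 102 normalized CPM on days 4 to 6 (median 64.4) and at 0.429 and 2.59 on day 8 (log2 fold change -5.34 ± 0.79, adjusted p = 0.0123), and its near-identical neighbour TPSB2 was between 43.3 and 121 normalized CPM on days 4 to 6 (median 77.8) and at 0.675 and 4.12 on day 8, with an uncertain split of reads. TPSD1, another tryptase gene, fell from a median of 7.21 to 0.0818 and 0.440 (adjusted p = 0.0115). MS4A2, the beta chain of the IgE receptor, had 0 to 26 counts on days 4 to 6 and 0 on day 8, at least 2.51-fold lower, and did not pass the test (adjusted p = 0.143). PRG2 rose by 0.61 (adjusted p = 0.0463). For the 2 surface markers whose mRNA is given here, CD36 was between 871 and 1334 normalized CPM on days 4 to 6 (median 1159.7) and at 1819 and 1601 on day 8 and ITGA4 was between 488 and 548 normalized CPM on days 4 to 6 (median 509.5) and at 534 and 296 on day 8. Their log2 fold changes of 0.58 and -0.31 did not pass the test (adjusted p = 0.0510 and 0.334).

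Taking the days of the EB/LB stage apart, 734 genes were higher and 818 lower on day 8 than on day 4, 124 and 206 against day 5, and 28 and 103 against day 6 alone, where 3206 genes had an unadjusted p under 0.05. Against day 6 alone few list members were called, namely 2 of 10 globin, 0 of 15 heme synthesis, 1 of 18 membrane skeleton, 3 of 24 blood group and transporter, 0 of 24 ATF4 and eIF2alpha and 0 of 50 ribosome biogenesis genes, beside 0.184% of all genes higher and 0.675% lower. Their medians had the same sign as over days 4 to 6, at 1.36 for globin, 0.77 for heme synthesis, 0.72 for membrane skeleton, 0.87 for blood group and transporter, 0.74 for ATF4 and eIF2alpha and -0.78 for ribosome biogenesis genes. Among the genes named above, those higher against day 6 alone included HBB (1.57, adjusted p = 0.0313), HBM (adjusted p = 0.0329), RHD (2.09), KLF13 (0.92) and ARG1 (3.28). Those lower included PALM2AKAP2 (-6.53, adjusted p = 0.00248), GCSAML (-5.94), LYN (-1.87), FMNL1 (-4.29), MSN (-2.31), ENO1 (-2.01) and TPSAB1 (-5.21, adjusted p = 0.0495). SLC4A1, ALAS2, TRIM10 and ASNS, whose levels were higher on day 6 than on day 4 in both sets, had log2 differences of 1.71, 1.15, 1.23 and 0.72 from day 6 that did not pass the test.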

How the data were processed

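The authors made stranded mRNA libraries from 20 samples of HUDEP-2 cells. Per the submitters' processing notes, Trimmomatic 0.38, HISAT2 2.1.0, StringTie 2.1.3b and hg38 were used. How reads shared by transcripts were divided and whether counting used strand are not given in the sources used here. The deposited counts are whole numbers for 170322 RefSeq transcripts, not normalized. The deposited TPM were scaled by the authors for length and depth. Another 23 of the 63 value columns, deposited as FPKM or as extra day 0 libraries, were not used here.

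Transcript counts sharing a gene symbol were added up, which gave 46425 genes. The 8 libraries of days 4, 5, 6 and 8 entered 1 fit in edgeR 4.0.16 (filterByExpr by day, TMM, glmQLFit and glmQLFTest), with a coefficient for each day and the contrast of day 8 with the mean of days 4, 5 and 6. Benjamini-Hochberg adjustment ran over the 15254 genes tested, and calls were made under 0.05. A standard error is the absolute log2 fold change over the square root of F. Levels are TMM-normalized CPM, and changes within a set are differences of log2 CPM with a prior count of 2. Fold changes against 0 counts use a floor of 3 counts. Standard errors cover the spread between these libraries, and floors cover counting error only. The test was first tested on simulated data.

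Gene lists and the samples compared were chosen with earlier results of these data known. Named were the 10 largest increases and the 10 largest decreases among called mRNA genes with a mean of at least 5 normalized CPM in the higher stage, 1 direction in both sets and no overlap, the 5 and 5 largest at 100 or more, every member of lists of up to 10 genes and of the 4 lists with the largest share called, the up to 4 largest called changes of other lists, and 12 genes of known role. Genes named outside this rule, such as JAK2, ERFE, STAT5A, BCL2L2, CCND1, CCND3, BPGM, LDHA, GAPDH, GCLM, GCLC, SREBF2, DIAPH1, LMNA, CFL1 and the genes given as not passing in larger lists, were chosen after their values were seen. Some members of the lists are not reported here. Alternatives were DESeq2 1.42.0, limma 3.58.1 on log2(TPM + 1) and log2(TPM + 0.1), other normalizations and filters, all 20 libraries, a block for the set and each library left out.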

Additional observations from a re-analysis of the deposited data

How the results depend on the processing

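No paired analysis was possible because the deposited columns carry no replicate number, and the set of tables was used as a block instead, which gave 3080 genes higher and 3381 lower. Against 1300 and 1118 in the report, DESeq2 called 2022 higher and 2199 lower, the fit of all 20 libraries 2001 and 1815, and 1 coefficient for days 4 to 6 2241 and 2215. Against day 6 alone 28 and 103 were called. Against day 5 alone and day 4 alone, chosen after seeing the data, the counts were 124 and 206, and 734 and 818. Limma called 448 higher and 4010 lower on log2(TPM + 1) and 444 and 4317 on log2(TPM + 0.1). The genes higher were then 10.0% and 9.33% of those called against 53.8% in the report and the cause was not tested. The median of all genes moved to -0.29 and -0.42. Relative to those medians the lists for heme synthesis (0.67 and 0.80), membrane skeleton (0.65 and 0.78), ATF4 (0.73 and 0.93) and ribosome biogenesis (-1.04 and -0.94) kept their direction. List members called in the report whose log2 fold change was below 0 on TPM were GFI1B (-0.05 on both), NBR1 (-0.01 and -0.02), PSME4 (-0.09 on both) and UBB (-0.03 on both), all above the median of all genes on those scales. Among the 508 genes followed that were not called, 200 changed sign on log2(TPM + 1), GATA1, CD47, CD59, TMEM14C, MCM2 and UBE2O among them, and 92 did so relative to that median.

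With 1 library left out the genes higher ranged from 83 to 1764 and the genes lower from 151 to 1715, lowest without the day 8 library of set B and highest without that of set A. Leaving out a day 4, 5 or 6 library gave 314 to 640 higher and 299 to 529 lower, so every library changed the counts by more than 1.5 times but for the higher genes without the day 8 library of set A. A stage left with 1 library on a day is assumed to vary like the other days. Of 256 called genes that were followed through 22 alternatives, 4 changed sign, on TPM. Relative to the median of all genes 2 others did so on log2(TPM + 1), IKZF2 and THBS1, and 0 on log2(TPM + 0.1). With 2 libraries on day 8, a gene that did not pass the test is not shown to be unchanged.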

Other observations

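A few single genes outside the lists were lower on day 8 (edgeR's quasi-likelihood test, Benjamini-Hochberg adjustment). They were chosen after their values were seen, so they stand for no wider group. LCP1, the leukocyte plastin that bundles actin, was between 57.1 and 143 normalized CPM on days 4 to 6 (median 85.1) and at 11.0 and 6.74 on day 8 (log2 fold change -3.34 ± 0.28, adjusted p = 0.00386). VIM, vimentin, an intermediate filament that human erythroblasts lose, was between 16.4 and 40.7 normalized CPM on days 4 to 6 (median 20.1) and at 1.80 and 3.60 on day 8 (log2 fold change -3.06 ± 0.38, adjusted p = 0.00869). ANXA2, an annexin of the membrane, and TMSB10, a thymosin that binds free actin, fell by 2.50 and 1.98 on the log2 scale (adjusted p = 0.0110 and 0.00386). These 4 genes were lower in both sets and remained called without the day 8 library of set B, with adjusted p between 0.0267 and 0.0395. HK2, the inducible hexokinase, fell from a median of 21.4 to 3.39 and 0.804 (adjusted p = 0.0399), which did not pass without that library (adjusted p = 0.208).

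A few secreted or hormone-responsive genes were higher but uneven between the libraries of day 8. GDF15, a cytokine that erythroblasts secrete, was between 11.98 and 56.9 normalized CPM on days 4 to 6 (median 22.1) and at 56.5 and 435 on day 8 (log2 fold change 3.22 ± 0.70, adjusted p = 0.0292), so the library of set A lay within the range of days 4 to 6. TSC22D3, a glucocorticoid target, was between 1.69 and 8.60 normalized CPM on days 4 to 6 (median 3.31) and at 7.75 and 44.3 on day 8 (adjusted p = 0.0474), also with set A inside that range. Neither passed without the day 8 library of set B (adjusted p = 0.426 and 0.582).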
